A study of Mus musculus with 6 samples.

Results

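The genes examined are the mouse zinc finger genes whose symbol is Zfp followed by a number of 3 digits that begins with 9. They were taken by symbol from the gene tables of all 6 libraries, and 64 of 56748 genes carried such a name, from Zfp930 to Zfp995. Zfp955a and Zfp955b, whose names end in a letter, do not meet that rule. Uterine RNA was collected at 1600 h on day 4 of pregnancy, and poly(A) RNA was sequenced. The control libraries (3, genotype given as WT) were set against 3 Zip10 conditional knockout libraries (cKO, from mice deficient in the uterus for Zip10, the zinc importer encoded by Slc39a10). The labels call the tissue uterus and the series design calls it endometrium. Strain, age, Cre driver and deleted exons are not stated in these sources. No source states that the libraries are from different animals; p-values cover the variation among these 6 libraries, which may be technical.

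Proteins of this kind carry an array of C2H2 zinc fingers, each of which reads a few bases of DNA. Many also carry a KRAB domain, which recruits the corepressor Trim28 and the histone methyltransferase Setdb1 to silence retroviral and other repeated sequence. In rodents the family has grown by tandem duplication, so its genes lie in clusters of close relatives, and a cluster on distal chromosome 4 is known to differ in gene content between inbred mouse strains.

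The libraries held 19643093 to 22809577 expected counts. Slc39a10 was at 54.6, 70.4 and 66.2 in controls 1 to 3 and at 39.5, 72.5 and 79.8 in cKO 1 to 3, in CPM (expected counts scaled to library size). The gene did not separate the groups, and since the deleted exons are not named its total does not check the genotype labels, which are used as given. In a multidimensional scaling on the genes that differed most between libraries, cKO 1 lay at -1.58 on the first axis. The other libraries lay between -0.02 and 0.77 on it, with control 1 at 0.40. Further axes were not examined. Mitochondrial genes took 3.43% of the counts in cKO 1 and 4.50% to 4.84% in the others. All 8 epithelial, 8 stromal and 7 smooth muscle markers were detected. Summed stromal markers were higher in every cKO library (11334 to 13289 CPM) than in any control (8423 to 10658 CPM), as were summed lymphocyte and NK markers, at 34.8 CPM or more against 21.4 to 31.9. Epithelial sums overlapped, at 846 to 1284 CPM in controls and 709 to 1047 CPM in the knockouts. So did smooth muscle, endothelial, macrophage and red blood cell sums. In such sums the most abundant markers weigh most, single markers were not compared, and the sums were not tested between groups. The part of this mix in the values that follow was not tested.

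The coding sequences show the family resemblance that bears on counting reads. A short linker joins each finger to the next, and the letters ACNGGNGANAANCCN, with N any base, cover its usual codons. Searched in frame on the coding strand of the longest coding sequence of each gene (GENCODE M21), this motif was present in 61 of the 63 genes of the group with a coding sequence (96.8%). It was present in 71.2% of the other numbered Zfp genes and in 2.206% of all genes with a coding sequence. The median gene of the group had 7 matches, and Zfp950 had 16, the most. In the stretches printed here capitals mark the linker at each end of a single finger. Zfp990 and Zfp991 are shown because their levels ran opposite ways across libraries, and Zfp950 because it was the most abundant gene of the group.
Zfp990: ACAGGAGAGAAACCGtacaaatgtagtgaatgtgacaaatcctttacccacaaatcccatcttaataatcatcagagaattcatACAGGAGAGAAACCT
Zfp991: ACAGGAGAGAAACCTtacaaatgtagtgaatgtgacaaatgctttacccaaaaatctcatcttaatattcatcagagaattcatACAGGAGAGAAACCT
Zfp950: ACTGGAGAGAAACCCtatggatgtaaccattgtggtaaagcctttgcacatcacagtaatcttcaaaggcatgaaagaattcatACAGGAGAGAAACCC
The stretches run over coding bases 955 to 1053 in Zfp990, 787 to 885 in Zfp991 and 292 to 390 in Zfp950. Over these 99 bases Zfp990 and Zfp991 differed at 5, and Zfp990 and Zfp950 at 28. Zfp992 and Zfp993 carried the same 99 bases as Zfp991, with 0 differences.

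Because such copies share reads, the sequence that each gene has in common with others was measured, as the percentage of its 100-base transcript windows that also occur in a transcript of another gene on either strand. The transcripts were those of GENCODE M21, which may differ from the annotation used for the counts. It was under 5% for 32 of the 64 genes and over 50% for 13. Zfp990 shared 3.6% of its windows and Zfp950 shared 0.0%. Zfp935 shared 99.3%, almost all with the predicted gene Gm49359. Zfp991 shared 70.3%, chiefly with the pseudogene Znf41-ps, and Zfp993 shared 71.9%, chiefly with Zfp991. On chromosome 2, Zfp965, Zfp966, Zfp967, Zfp968 and Zfp973 each shared over 70%. Expected counts of such genes depend on how the counting program divided the shared reads, so their values are uncertain.

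**Figure D1:**
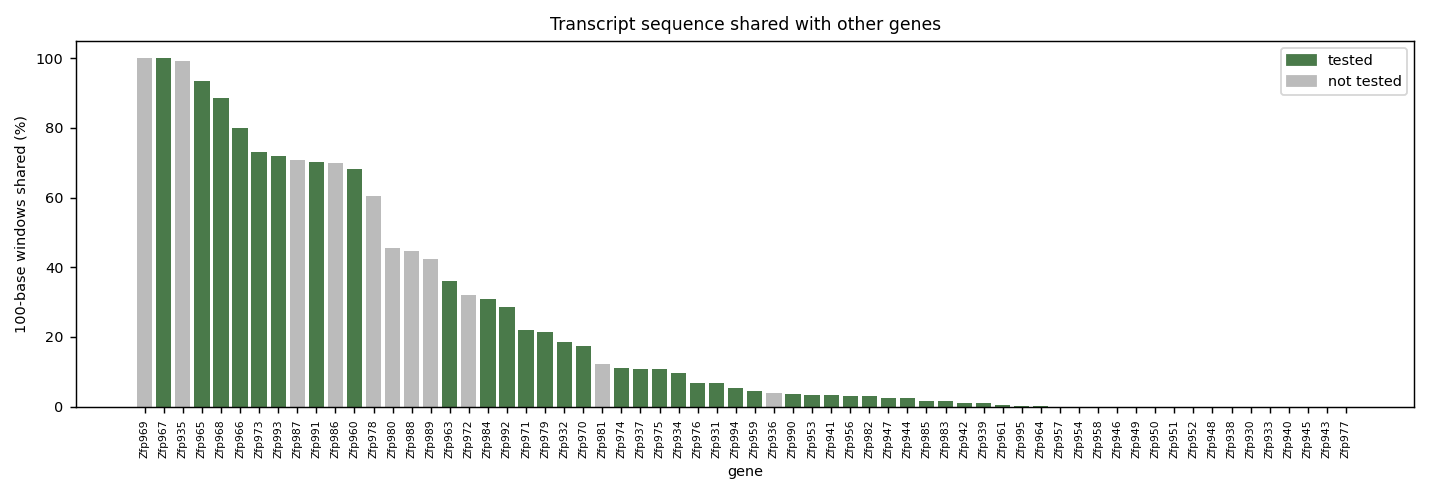
Percentage of 100-base transcript windows shared with another gene (y axis) for each of the 64 genes (x axis), in green for the 52 genes tested between groups and grey for the 12 that were not. Zfp990 sits low at 3.6% and Zfp935 high at 99.3%.

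Most of these genes were present in pregnant uterus at modest levels. Genes are compared by deposited TPM, a transcript abundance that is corrected for gene length. Mean TPM over the 6 libraries was at least 1 for 49 genes and at least 10 for 7. Zfp950 led at 25.8, followed by Zfp932 at 24.7, Zfp961 at 19.4, Zfp970 at 15.3, Zfp948 at 11.9, Zfp930 at 10.9 and Zfp991 at 10.045. Zfp931 at 9.96, Zfp943 at 9.83 and Zfp984 at 9.002 completed the 10 highest. The first and second of these were not separated, since TPM ran from 17.43 to 32.37 for Zfp950 and from 19.94 to 26.69 for Zfp932. The 52 genes with enough counts to be tested had a median of 5.56 TPM, against 11.7 for all tested genes. The 12 others did not exceed a mean of 0.937 TPM (Zfp972).

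**Figure D2:**
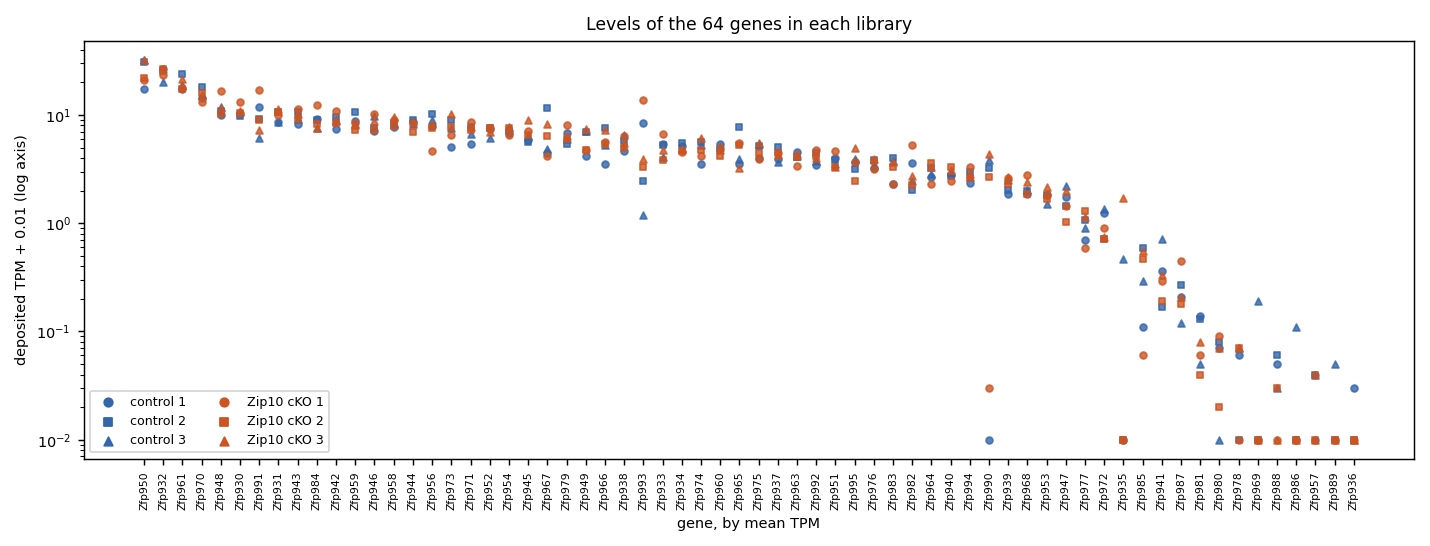
Deposited TPM plus 0.01 on a log axis (y) for each of the 64 genes ordered by mean TPM (x), with a point per library coloured by group and shaped by replicate number. For most of the abundant genes the 6 points lie close together, while Zfp990 has both libraries numbered 1 (circles) far below its other 4 points.

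Zfp990 (ENSMUSG00000078503, chromosome 4) was present in some libraries and nearly absent from others. Its expected count was 0 in control 1, 141 in control 2, 176 in control 3, 1 in cKO 1, 127 in cKO 2 and 185 in cKO 3. Control 1 and cKO 1 were thus nearly without the transcript, and the other 4 libraries, from both groups, all held it. In CPM the controls were at 0, 6.97 and 8.31, and cKO 1 to 3 at 0.0475, 5.84 and 9.19. A count of 0 allows up to 0.132 CPM in control 1 (3 counts in that library, for counting error only). Against that limit the level was at least 44.3-fold higher in cKO 2, the lowest of the 4 libraries, and at least 69.6-fold higher in cKO 3, the highest. The group means were 5.09 ± 4.46 CPM for control and 5.03 ± 4.63 CPM for cKO (SD, n = 3 each), with an exact two-sided permutation p of 1.0, where 3 against 3 cannot go below 0.1.

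Zfp935 (ENSMUSG00000055228, chromosome 13) was the other gene with a split, taken as an expected count of 2 or less in some library and 30 or more in another. It had 0 counts in controls 1 and 2 and in cKO 1 and 2, 10.79 in control 3 and 36.84 in cKO 3. Only the libraries numbered 3 held any, and without cKO 3 the gene no longer met the definition. Its near copy Gm49359 was at 12.2, 14.4 and 13.1 CPM in controls 1 to 3, against 16.4, 12.7 and 12.6 in cKO 1 to 3. The sum of both genes had a highest to lowest ratio of 1.34 over the libraries. Zfp935 shares nearly all its windows, so its counts depend on how reads were divided. Zfp990 shares few windows in GENCODE M21. The part of read division in either split was not tested.

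A split of this size was found in 107 of 56748 genes (0.189%), or in 0.698% of the 15332 genes that reached a count of 30 in some library. In the group 50 genes reached that count and 2 of them (4.0%) were split. Among the other numbered Zfp genes 287 reached it and 0 were split. Of the 64 genes, 47 had at least 30 counts in every library and 5 had at most 2 in every library (Zfp936, Zfp957, Zfp978, Zfp986 and Zfp989). No other gene in the files had the exact library pattern of Zfp990, or that of Zfp935, by these thresholds. With 1 count or less against 15 or more, 1 other gene had that of Zfp990 (Masp2, also on chromosome 4) and 1 other had that of Zfp935 (Fga).

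**Figure D3:**
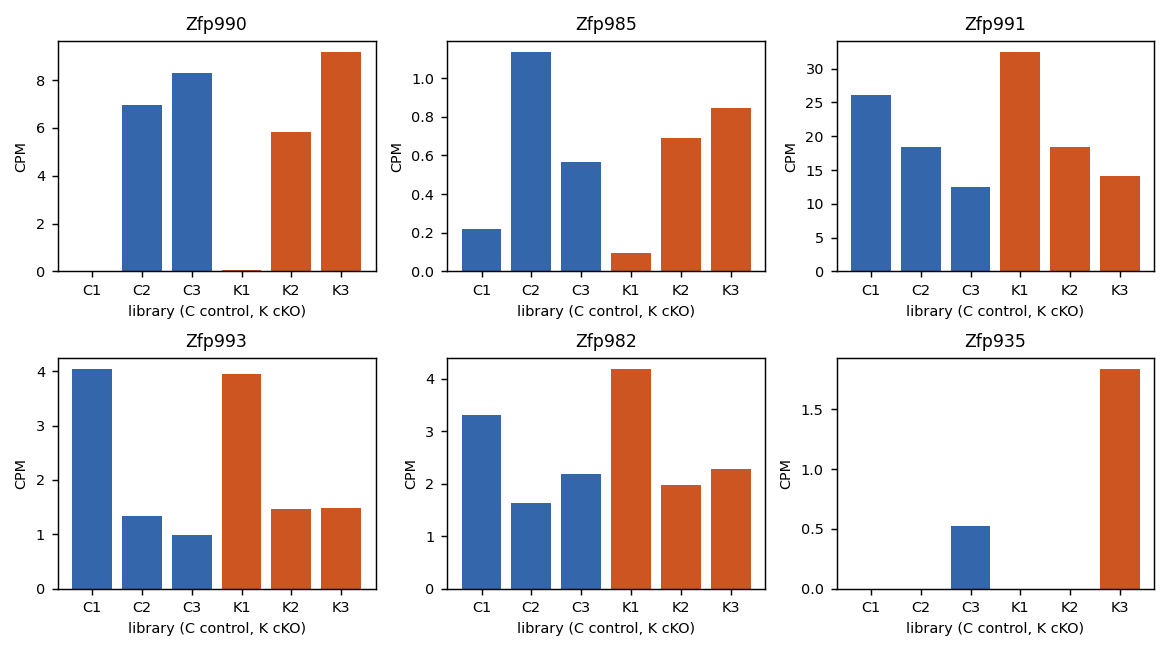
CPM (y axis, from 0) in controls 1 to 3 (C1 to C3, blue) and cKO 1 to 3 (K1 to K3, orange) for 6 genes, each bar a single library. Zfp990 and Zfp985 are lowest in C1 and K1, Zfp991, Zfp993 and Zfp982 are highest in C1 and K1, and Zfp935 appears only in C3 and K3.

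The neighbours of Zfp990 on chromosome 4 also set control 1 and cKO 1 apart from the other libraries. The group has 14 genes there, in the order Zfp990, Zfp980, Zfp987, Zfp992, Zfp981, Zfp993, Zfp978, Zfp991, Zfp988, Zfp982, Zfp985, Zfp979, Zfp984 and Zfp933 (order from RefSeq GRCm38.p6, used for neighbourhood only, since the files use GRCm39). Of the 9 with enough counts to be tested, 6 were higher in both libraries numbered 1 than in any other library and 2 were lower in both. Zfp992 was neither. Over all 16737 tested genes the libraries numbered 1 were both highest or both lowest for 17.4%, those numbered 2 for 14.4% and those numbered 3 for 15.5%. On chromosome 4 the count for number 1 was 8 of 9, for number 2 it was 1 and for number 3 it was 3. For the 43 tested genes of the group on other chromosomes the share for number 1 was 25.6%, and for the other numbered Zfp genes it was 21.3%. This pattern was noticed in the values, and the 9 genes are neighbours that share sequence, so they are not independent. As given above, cKO 1 also stood apart on the first axis of the scaling, and control 1 did not on that axis.

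Zfp985 was low where Zfp990 was low, at 0.220, 1.14 and 0.567 CPM in controls 1 to 3, against 0.0951, 0.690 and 0.844 in cKO 1 to 3. It rests on counts of 2 to 23 per library. Zfp993 ran the opposite way, at 4.04, 1.33 and 0.992 CPM in controls 1 to 3, against 3.95, 1.47 and 1.49 in cKO 1 to 3. Both libraries numbered 1 were far above the other 4, and the ratio of highest to lowest was 4.08.

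Zfp991 was at 26.1, 18.5 and 12.4 CPM in controls 1 to 3, against 32.5, 18.4 and 14.2 in cKO 1 to 3. The libraries numbered 1 were highest and those numbered 3 lowest in both groups. Zfp991, Zfp993 and Znf41-ps share many windows, and their sum was 45.1, 28.5 and 21.3 CPM in controls 1 to 3, against 55.8, 30.1 and 21.3 in cKO 1 to 3. The sum of these copies still differed 2.62-fold from lowest to highest. It leaves out Zfp992, which shares 24.8% of its windows with Zfp991.

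Zfp982, which shares 3.1% of its windows, was at 3.30, 1.63 and 2.17 CPM in controls 1 to 3, against 4.18, 1.98 and 2.28 in cKO 1 to 3. For Zfp979, Zfp984 and Zfp933 the libraries numbered 1 were also highest, with smaller highest to lowest ratios of 1.44, 1.60 and 1.62. Zfp984 was at 19.3, 17.4 and 14.6 CPM in controls 1 to 3, against 22.9, 16.3 and 14.4 in cKO 1 to 3. Zfp992, the exception, lay between 12.5 and 15.3 CPM in all 6 libraries. It carries the same finger stretch as Zfp991 and shares 28.6% of its windows, chiefly with Zfp991.

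**Figure D4:**
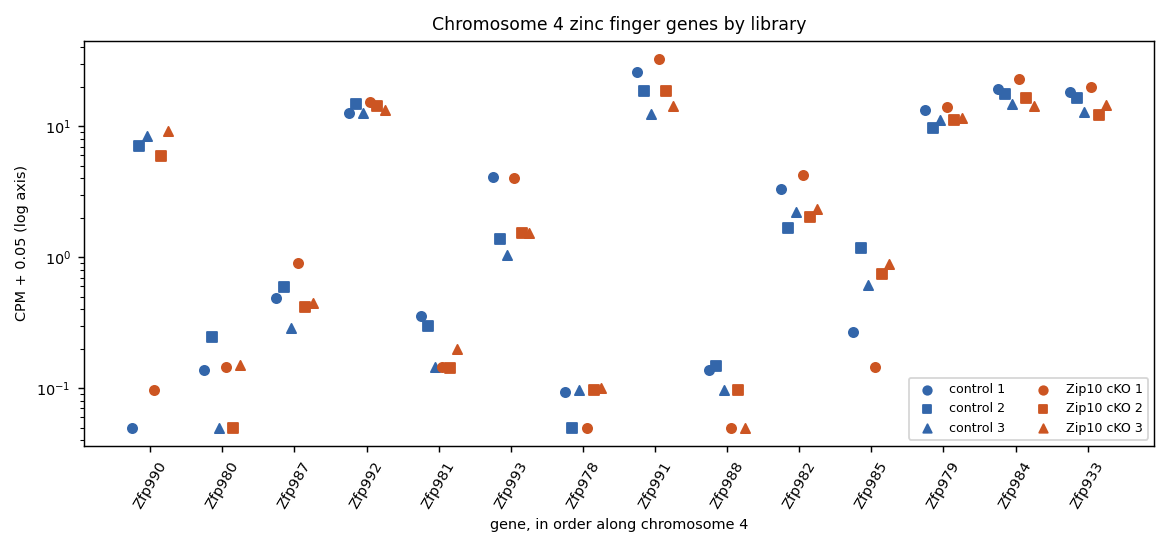
CPM plus 0.05 on a log axis (y) of the 14 chromosome 4 genes in their order along the chromosome (x), with controls in blue, cKO libraries in orange and a marker shape for each replicate number. The circles, libraries numbered 1, lie at the bottom for Zfp990 and Zfp985 and at the top for Zfp993, Zfp991, Zfp982, Zfp979, Zfp984 and Zfp933.

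The replicate number itself was also tested, after this pattern had been seen, as a term beside the group in edgeR's quasi-likelihood model of all genes. It called 5 of 16737 genes (0.0299%) at an adjusted p under 0.05, and Zfp990 was the single gene of the group among them. On simulated data this test made more false calls than its threshold allows, so its calls are given as a description. At an unadjusted p under 0.05 it held 8 of the 52 tested genes of the group, against 8.35% of all tested genes. Those on chromosome 4 were Zfp982, Zfp984, Zfp985, Zfp990, Zfp991 and Zfp993, and the others were Zfp974 and Zfp983. The labels do not say what a shared number stands for.

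Large differences between libraries were not limited to chromosome 4. Of the 52 tested genes of the group 10 (19.2%) differed more than 2-fold between the highest and the lowest library, against 24.5% of all tested genes. They were Zfp982, Zfp985, Zfp990, Zfp991 and Zfp993 on chromosome 4, Zfp941 and Zfp977 on chromosome 7, Zfp947 on chromosome 17, Zfp956 on chromosome 6 and Zfp967 on chromosome 2. Zfp941 was scarce, at 0.445 to 1.32 CPM, as was Zfp977, at 0.523 to 1.24 CPM. Zfp967 was at 2.07, 5.34 and 2.36 CPM in controls 1 to 3, against 1.90, 2.94 and 3.48 in cKO 1 to 3, and all its windows are shared with other genes. The steadiest of the 10 most abundant genes was Zfp930, at 17.7 to 19.1 CPM.

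RefSeq promoter windows (250 bases before to 50 after the start, GRCm38.p6) were at hand for 54 of the 64 genes, with 62 entries. Zfp990, Zfp991 and Zfp992 were among the genes with no entry. Searched on both strands, CCAAT was present in 77.4% of the entries against 37.4% of 32851 promoters of the same length. GGGCGG was present in 33.9% against 35.7%, and TATAAA in 0 of 62 against 13.6%. The letters ATTGGGCGG, in which CCAAT on the other strand overlaps GGGCGG, were noticed in the windows and then counted. They were present in 9 of 62 entries (14.5%) and in 84 promoters overall (0.256%). Those entries belonged to Zfp979, Zfp980, Zfp981, Zfp982, Zfp984, Zfp985 and Zfp988 on chromosome 4 and to Zfp947 and Zfp994 on chromosome 17. Copies made by duplication are not independent, and a match is only a match of letters. The windows of Zfp985 (chr4:147553027-147553326, plus strand), low in both libraries numbered 1, and of Zfp982 (chr4:147492167-147492466, plus strand, 1 of its 3 entries), high in both, are shown with that of Zfp950 (chr19:61140791-61141090, minus strand). Capitals mark CCAAT and GGGCGG on either strand.
Zfp985: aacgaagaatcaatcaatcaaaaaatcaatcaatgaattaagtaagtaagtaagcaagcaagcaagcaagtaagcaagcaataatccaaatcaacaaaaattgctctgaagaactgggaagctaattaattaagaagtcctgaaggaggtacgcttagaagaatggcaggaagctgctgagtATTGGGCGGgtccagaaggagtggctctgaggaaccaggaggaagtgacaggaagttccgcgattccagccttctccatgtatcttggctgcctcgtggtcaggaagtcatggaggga
Zfp982: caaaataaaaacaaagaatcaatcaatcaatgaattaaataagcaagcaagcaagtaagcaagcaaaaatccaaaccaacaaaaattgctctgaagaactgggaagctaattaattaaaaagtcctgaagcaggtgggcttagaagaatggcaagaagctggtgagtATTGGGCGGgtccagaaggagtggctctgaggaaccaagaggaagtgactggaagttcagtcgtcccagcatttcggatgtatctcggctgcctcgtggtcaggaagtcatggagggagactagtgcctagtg
Zfp950: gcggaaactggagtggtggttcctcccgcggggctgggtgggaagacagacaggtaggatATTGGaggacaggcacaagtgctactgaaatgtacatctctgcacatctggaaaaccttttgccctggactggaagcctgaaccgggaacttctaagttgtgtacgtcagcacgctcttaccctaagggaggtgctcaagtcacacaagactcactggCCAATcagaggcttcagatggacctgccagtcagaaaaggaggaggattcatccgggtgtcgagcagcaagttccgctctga
The run ATTGGGCGG stands in the windows of both Zfp985 and Zfp982. Any link between the run and the levels was not tested. The Zfp950 window holds CCAAT without it.

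Between the groups no gene of the set passed the test. In edgeR's quasi-likelihood test 0 of the 52 tested genes had an adjusted p under 0.05, where 0 of all 16737 tested genes did (0.0%), and the smallest adjusted p in the set was 0.747. Without adjustment 0 of 52 had a p under 0.05, against 6.46% of all tested genes. DESeq2 called 0 of the set and 38 of all genes, edgeR's likelihood ratio test 0 and 30, and limma-voom 0 and 0. The median log2 fold change of cKO over control was -0.03, beside -0.002 over all tested genes, with 22 genes positive and 30 negative. The values ran from -0.43 to 0.25. Zfp990 had the widest error (-0.02 ± 1.45, SE), and over the other 51 genes the SE ran from 0.114 to 0.747 with a median of 0.189. In bulk tissue fewer expressing cells and less RNA per cell cannot be told apart.

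**Figure D5:**
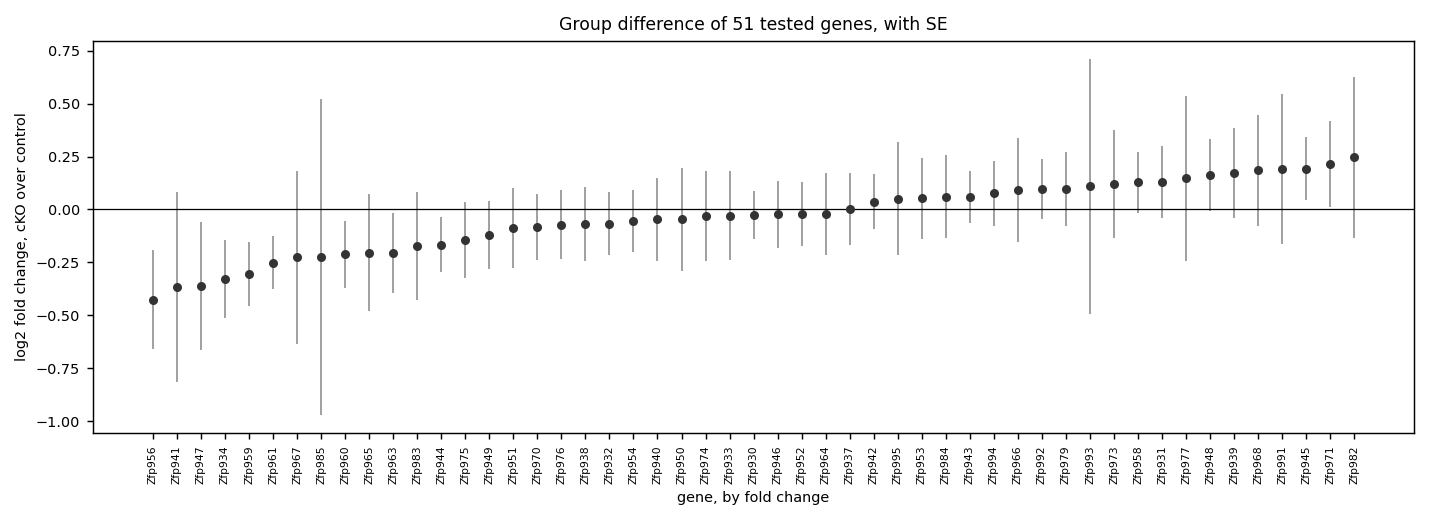
Log2 fold change of cKO over control (y axis) with its SE as error bar for the 51 tested genes other than Zfp990, ordered by fold change (x axis), and a line at 0. The values run from -0.43 to 0.25 and 0 of them passed the test.

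In 4 of the 52 tested genes (7.69%) the groups did not overlap, where 12.7% of all tested genes did not. In all 4 the knockouts lay below the controls, and in 0 above; over all tested genes 5.78% lay below and 6.93% above. Zfp956, on chromosome 6, was at 16.7, 19.96 and 16.8 CPM in controls 1 to 3, against 8.46, 15.4 and 15.9 in cKO 1 to 3. Its lowest value came from cKO 1, and its log2 fold change of -0.43 ± 0.23 (SE; quasi-likelihood adjusted p = 0.756) was -0.19 without that library. Zfp959, on chromosome 17, was at 12.6, 13.6 and 10.7 CPM in controls 1 to 3, against 10.1, 9.39 and 10.3 in cKO 1 to 3. Its log2 fold change was -0.31 ± 0.15 (SE; quasi-likelihood adjusted p = 0.747), and control 3 lay close to the knockouts.

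Zfp934, on chromosome 13, was at 5.89, 6.82 and 5.48 CPM in controls 1 to 3, against 4.80, 4.60 and 5.07 in cKO 1 to 3, a log2 difference of -0.33 ± 0.19 (SE). Zfp960, on chromosome 17, was at 11.2, 9.09 and 9.78 CPM in controls 1 to 3, against 8.94, 8.10 and 8.89 in cKO 1 to 3, a log2 difference of -0.21 ± 0.16 (SE). Zfp960 shares 68.3% of its windows, chiefly with Zfp97, and the sum of both was 19.8, 18.4 and 19.03 CPM in controls 1 to 3, against 19.1, 16.3 and 19.5 in cKO 1 to 3, where the groups overlapped. The exact two-sided permutation p was 0.1 for each of these 4 genes, the smallest that 3 against 3 allows. Zfp988 was also listed lower in the knockouts, but with at most 2.18 counts in any library it gives no fold.

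The most abundant genes overlapped between groups. Zfp950 was at 37.1, 59.0 and 47.0 CPM in controls 1 to 3, against 36.2, 39.0 and 63.3 in cKO 1 to 3, with control 2 and cKO 3 high. Zfp932 was at 31.0, 26.9 and 22.999 CPM in controls 1 to 3, against 22.4, 26.04 and 28.7 in cKO 1 to 3. Zfp961 was at 30.2, 32.3 and 29.0 CPM in controls 1 to 3, against 24.8, 22.7 and 29.4 in cKO 1 to 3. There cKO 3 alone reached the range of the controls, and the log2 fold change was -0.25 ± 0.13 (SE; quasi-likelihood adjusted p = 0.747). Zfp948 was at 30.2 CPM in cKO 1 and at 19.6 to 22.7 CPM in the other 5 libraries. For the remaining genes of the 10 highest the log2 fold changes were 0.13 for Zfp931, 0.06 for Zfp943, -0.03 for Zfp930, -0.08 for Zfp970, 0.06 for Zfp984 and 0.19 for Zfp991, each smaller than its SE.

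By chromosome, the median log2 fold change was 0.09 for the 9 tested genes on chromosome 2, 0.10 for the 9 on chromosome 4, -0.05 for the 8 on chromosome 7, -0.03 for the 5 on chromosome 8, -0.14 for the 2 on chromosome 13 and -0.02 for the 13 on chromosome 17. For the 6 tested genes on other chromosomes it was -0.08, with all 6 negative. Of the 12 genes not tested, 8 share over 40% of their windows with other genes, among them Zfp935, Zfp969 and Zfp987.

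Genes through which KRAB zinc finger proteins act were listed together with the zinc finger genes Zfp57, Zfp445 and Zfp809. The list had 31 names, of which 30 were found and 29 tested. Of these 0 passed the quasi-likelihood test after adjustment and 1 (3.45%) had an unadjusted p under 0.05, against 6.46% of all tested genes. The median log2 fold change was -0.02, with 11 positive and 18 negative. Trim28, the corepressor bound by the KRAB domain, was at 305, 295 and 277 CPM in controls 1 to 3, against 223, 287 and 215 in cKO 1 to 3. The groups overlapped, with cKO 1 and cKO 3 low, and the log2 fold change was -0.27 ± 0.13 (SE; quasi-likelihood adjusted p = 0.747). Setdb1, the methyltransferase, was at 77.1, 83.5 and 77.5 CPM in controls 1 to 3, against 74.5, 84.1 and 79.1 in cKO 1 to 3. Zfp57, a KRAB zinc finger protein that keeps imprinted loci methylated, had the smallest p of the list. It was at 32.9, 54.7 and 42.5 CPM in controls 1 to 3, against 22.7, 33.6 and 34.5 in cKO 1 to 3, a log2 difference of -0.52 ± 0.22 (SE; quasi-likelihood adjusted p = 0.747), with overlap between control 1 and the knockouts. Zfp809, which silences retroviral sequence, gave a log2 difference of 0.26 ± 0.14 (SE).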

How the data were processed

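Poly(A) RNA of mouse uterus was sequenced in 6 libraries, grouped by sample title. Per the submitters' processing notes the tools included fastp 0.23.2, STAR 2.7.10a and RSEM 1.3.3, with build GRCm39; no source used here gives the annotation release or strandedness. The authors deposited expected counts, in which reads shared by genes are divided between them, and TPM, both per the file headers; TPM keeps no depth. The other deposited columns, gene lengths per the file headers, served only to describe genes. GENCODE M21 gave symbols for 91.8% of gene IDs, so a gene given such a symbol only later is not counted. Expected counts were rounded, filtered with filterByExpr (minimum count 10, minimum total 15), scaled by TMM and tested with edgeR 4.0.16's quasi-likelihood test (robust, two-sided, Benjamini-Hochberg over 16737 genes, threshold 0.05) in R 4.3.3. Both tests were tested on simulated data, where the group test kept false calls near its threshold and the test of the replicate number did not. The genes and lists were chosen with earlier results of these data known. Genes named are those split by library, those with an unadjusted p under 0.05 and the 10 highest by TPM. Also named are those whose groups do not overlap, Trim28, Setdb1 and the genes of the KRAB list with the 3 smallest p. Others, the count by replicate number and the joined promoter motif were chosen after values were seen. Alternatives were DESeq2 1.42.0, limma-voom and limma-trend on log2(TPM + 1) (limma 3.58.1), the likelihood ratio test, other scalings and filters, the replicate number as a block, and leaving out libraries.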

Additional observations from a re-analysis of the deposited data

How the results depend on the processing

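Of the genes of the group 0 were called under every setting run for the group comparison. Over all genes the count of calls was 0 in the main test, 38 with DESeq2, 30 with the likelihood ratio test, 15 with no filter on low counts and 0 to 2 with a library left out (2 without cKO 1); among the other numbered Zfp genes it was 1 with each of DESeq2, the likelihood ratio test and no filter. The number of genes of the group at an unadjusted p under 0.05 was 0 to 1 with a library left out (1 without control 3 or without cKO 3). The median log2 fold change of the group was 0.048 with limma-trend on TPM, against -0.026, and -0.058 to 0.002 with a library left out. With 100 counts as the upper limit 1 gene was split by library (Zfp990), and 1 to 2 were with a library left out (1 without cKO 3). Among 15 named genes, 21 of 240 alternative values changed sign and 0 became called: with limma-trend on TPM Zfp930 gave 0.14 and Zfp932 0.091, with limma-voom Zfp990 gave 0.62, and without both libraries numbered 1 (added after the data were seen) Zfp932 gave 0.13, Zfp943 -0.023, Zfp948 -0.08 and Zfp984 -0.07. With a library left out the ranges were -0.18 to 0.038 for Zfp932, -0.047 to 0.28 for Zfp948, -0.34 to 0.13 for Zfp950, -0.17 to 0.002 for Zfp970, -0.16 to 0.19 for Zfp984, -0.78 to 0.56 for Zfp990 and -0.22 to 0.48 for Zfp991. The cause of these changes was not tested.

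The replicate numbers share no stated origin. Deviations from group means correlated over 16737 genes at 0.092, 0.254 and 0.189 for the pairs numbered 1, 2 and 3. Such deviations sum to 0 within a group, so the values of like and unlike pairs depend on each other. For the 6 pairs of unlike numbers the values ran from -0.333 (control 3 with cKO 2) to 0.119 (control 3 with cKO 1). That highest value lay above the pair numbered 1. With the replicate block the number of genes of the group at an unadjusted p under 0.05 was 1 (Zfp956), and 0 genes were called. The test of the replicate number itself called 4 genes with RLE size factors, 4 with a minimum count of 30 and 6 with limma-voom, against 5.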

Other observations

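Some genes outside the group were looked at after the pattern of Zfp990 was seen. Masp2, a serine protease gene of the lectin complement pathway that lies farther along chromosome 4 than Zfp933, had 1 count in each library numbered 1 and 24.79 to 41.93 in the others. Its level was 0.044, 1.24 and 1.98 CPM in controls 1 to 3, against 0.0475, 1.75 and 1.44 in cKO 1 to 3. The higher counts of Masp2 were fractional, so reads were divided between genes, and the windows it shares were not measured. Of 4 other tested genes that lie between the chromosome 4 members, Gm13212 and Znf41-ps were higher in both libraries numbered 1 than in any other library. Neither is independent of the members, since Zfp984 shares 26.7% of its windows with Gm13212 and Zfp991 shares 56.9% with Znf41-ps. Gm13212 was at 10.3, 6.97 and 6.61 CPM in controls 1 to 3, against 9.13, 4.97 and 7.40 in cKO 1 to 3. Rex2, also on chromosome 4, had at most 7.8 expected counts in any library, too few to rank. Hdac1, a chromosome 4 gene of the KRAB list, was at 133.7, 68.4 and 65.3 CPM in controls 1 to 3, against 90.5, 64.1 and 57.6 in cKO 1 to 3. The libraries numbered 1 were both highest there too. Kdm1a, also of that list and on chromosome 4, did not show this and lay between 70.9 and 77.4 CPM.

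A few genes known to differ between inbred strains were described by their levels only, with no test. Glo1, whose copy number differs between strains, lay between 81.4 and 96.8 CPM in all 6 libraries. Nnt, part of which is deleted in C57BL/6J, is listed under 2 gene IDs. Their expected counts were fractional, at 958.68 and 660.32 in control 1, so reads were divided between genes. The ranking of libraries by either ID alone is therefore uncertain. The first (ENSMUSG00000025453) was at 42.1, 29.6 and 33.9 CPM in controls 1 to 3, against 51.9, 40.4 and 23.5 in cKO 1 to 3. The other (ENSMUSG00000116207) was at 29.0, 25.7 and 24.8 CPM in controls 1 to 3, against 35.1, 42.9 and 25.8 in cKO 1 to 3. Both libraries numbered 1 were highest by the first ID only. By the other, cKO 2 was above both of them. No sum over the IDs was taken. H2-Ea-ps was listed at 0 in all 6 libraries.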
